A study of Mus musculus with 12 samples.

Results

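The genes described here encode the subunits of the mitochondrial respiratory chain and of ATP synthase, measured in mouse retina after intravitreal nanoparticles. The members are all probes whose accession maps to a mouse symbol that starts with Nduf, Uqcr, Sdha to Sdhd, Cox4i, Cox5, Cox6, Cox7, Cox8 or Atp5, which gave 123 probes of 92 genes among 39429 probes of 32496 genes or unnamed accessions. Of these, 121 probes of 90 genes passed the filter on dim spots, which kept 28428 probes in all. The probes that did not pass were Cox8c, well above background on 0 of the 12 arrays in each channel, and Cox7b2, well above background on 1 of 12 in each. By function, the 121 kept probes comprised 42 probes of 36 complex I subunit genes, 10 probes of 8 complex I assembly factor genes (the Ndufaf symbols), 6 probes of 4 complex II genes, 14 probes of 8 complex III genes, 22 probes of 17 complex IV genes with Ndufa4 among them, 26 probes of 16 ATP synthase genes, and Ndufa4l2.

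The study asked how gold and silicate nanoparticles placed in the vitreous alter retinal expression. Male C57BL/6 mice aged 5 weeks were injected in the right eye with phosphate-buffered saline (PBS), with gold particles of 20 or 100 nm, or with silicate particles of 20 or 100 nm. Retinas were collected after 7 days, 12 mice entered each group, and 4 retinas were pooled per tube, so that a group consisted of 3 tubes. Each of the 12 two-colour arrays carried a particle tube in Cy5 and a PBS tube in Cy3, and each of 3 slides carried 1 array of every particle group. The dyes were never exchanged, so a dye preference of a probe and an effect shared by all particles cannot be told apart. The dye preference cancels between particle groups. Ratios below are log2 of the particle tube over the PBS tube, and levels are normalized log2 intensities of a single channel. A call means an adjusted p under 0.05.

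Complex I (NADH dehydrogenase) and complex II (succinate dehydrogenase) feed electrons to ubiquinone, complex III passes them to cytochrome c, complex IV (cytochrome c oxidase) reduces oxygen, and ATP synthase, often called complex V, uses the resulting proton gradient to make ATP. Photoreceptors, which crowd mitochondria into their inner segments, are among the heaviest oxygen consumers of the body, and rods make up most cells of the mouse retina. Several complex IV subunits come as a widely expressed form and a form typical of muscle, testis or hypoxic tissue. Cox6a1 and Cox8a are widely expressed forms, and Cox6a2 and Cox8b are the forms of heart and skeletal muscle.

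Many promoters of these genes are known to bind the activators NRF1 and GABP (also called NRF2), so the start regions were searched for their motifs as a description of the gene set. A RefSeq promoter of GRCm38.p6, 250 bases before to 50 bases after the start, was matched for 75 of the 92 genes. The NRF1 core letters GCATGCGC were found on either strand in 12 of 75 (16.0%) against 824 of all 27025 promoters (3.05%). The GABP letters CCGGAAG were found on either strand in 19 of 75 (25.3%) against 2683 of all (9.93%). Either motif occurred in 26 of 75 (34.7%) against 12.4% of all. The 250 bases before the start are shown for 3 genes, with motif matches on either strand in capitals and the sequence written 5′ to 3′ on the gene's strand, here the minus strand for each. Uqcrh had the smallest adjusted p of the members, Cox8b had the widest range over the arrays, and Cox6a1 is the widely expressed form beside the muscle form Cox6a2.
Uqcrh, chr4:116075071-116075320: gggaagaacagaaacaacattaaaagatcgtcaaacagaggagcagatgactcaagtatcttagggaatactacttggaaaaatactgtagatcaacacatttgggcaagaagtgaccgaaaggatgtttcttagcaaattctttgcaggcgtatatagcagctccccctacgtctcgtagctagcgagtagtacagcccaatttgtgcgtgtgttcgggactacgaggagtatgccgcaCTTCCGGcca
Cox6a1, chr5:115348959-115349208: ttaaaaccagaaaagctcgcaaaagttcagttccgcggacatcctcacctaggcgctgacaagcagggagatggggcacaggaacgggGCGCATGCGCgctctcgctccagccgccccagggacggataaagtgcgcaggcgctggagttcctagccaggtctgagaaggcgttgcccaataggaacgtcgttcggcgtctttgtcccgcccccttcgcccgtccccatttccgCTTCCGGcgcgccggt
Cox8b, chr7:140900447-140900696: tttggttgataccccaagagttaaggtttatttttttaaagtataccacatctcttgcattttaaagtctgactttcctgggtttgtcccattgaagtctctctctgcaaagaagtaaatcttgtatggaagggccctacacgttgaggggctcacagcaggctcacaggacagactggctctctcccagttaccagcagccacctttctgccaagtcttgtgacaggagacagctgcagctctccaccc
The Uqcrh window held the GABP letters, the Cox6a1 window held both motifs, and none of the letters searched occurred in the Cox8b window.

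Libraries of different slides stood apart, and some marker lists also differed by material within a slide. The macrophage and microglia markers had median log2 ratios of -3.06 to -1.77 on slide 1. On slide 2 they were 1.06 and 0.49 with gold, and 0.33 and 0.24 with silicate. The order was reversed on slide 3, at -0.45 and -0.86 with gold, and 3.40 and 3.54 with silicate. Both gold tubes were above both silicate tubes for 10 of these 14 genes on slide 2, against 17% of all probes. The reverse held there for 0 of 14, against 19% of all probes. On slide 1 both silicate tubes were above both gold tubes for 7 of 14, against 20% of all probes. Rod markers on slide 3 were 0.27 and 0.25 with gold and -0.87 and -0.84 with silicate. Among neutrophil markers, both silicate tubes were above both gold tubes for 7 of 9 genes on slide 2 and 6 of 9 on slide 3. The same held for 19% and 33.1% of all probes. S100a8, a calcium-binding protein abundant in neutrophils, had ratios on slide 2 of 0.13 and -0.09 with gold and 4.68 and 3.59 with silicate. The medians of the whole list on slide 2 were smaller with silicate, 0.89 and 0.52, against 0.10 and -0.08 with gold. Camp, Mpo and Elane lay between -0.06 and 0.13 on those silicate arrays. In pooled tissue, fewer cells of a type and less RNA per cell cannot be told apart. The tissue label held in so far as 15 of 15 rod markers were well above background in Cy5 on every array. The PBS channel varied little within a slide, with a median SD of 0.0368, 0.0449 and 0.0423 over the members on slides 1, 2 and 3 against 0.111 between slides, so the 4 arrays of a slide were taken to share a PBS tube, which no label states. Ratios from a slide then share their control, and adjusted p-values with slide as a random block (consensus correlation 0.489) are given beside the main ones for the called members.

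On the loess scale most members lay close to their PBS level. In the mean of the 4 particle groups, 110 of 121 member probes (90.9%) lay within 0.2 of 0 on the log2 scale, against 82.6% of all probes. The median SD within a group was 0.111 for members and 0.195 for all probes, and the median range over the 12 arrays was 0.347 against 0.616. The members' median Cy5 level was 14.24 to 14.40 by array. All probes were not matched to the members for intensity, and its part in these differences was not tested. The median log2 ratio of the members was 0.03 for gold 20 nm, 0.02 for gold 100 nm, -0.06 for silicate 20 nm and -0.02 for silicate 100 nm. With each array centred on its median in place of the intensity-dependent loess curve, the same medians were 0.126, 0.167, 0.028 and 0.141, so both silicate signs turned.

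**Figure D1:**
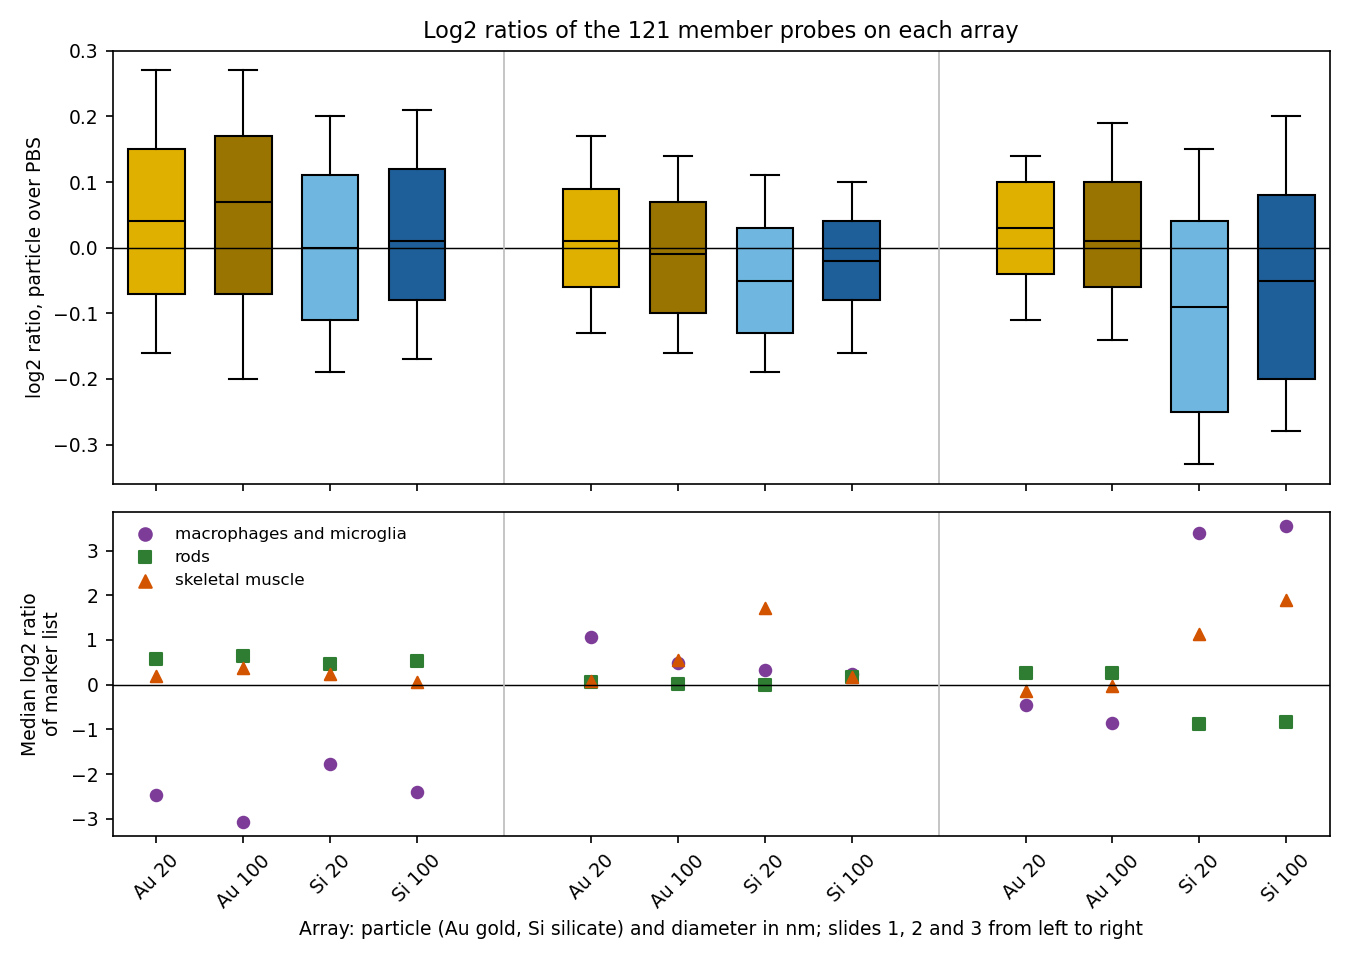
Upper panel: log2 ratios of particle over PBS for the 121 member probes on each array (box, quartiles with the median line; whiskers, 10th to 90th percentile). Lower panel: median log2 ratio of 3 marker lists on the same arrays. The member medians lie between -0.09 and 0.07, while the macrophage and microglia list runs from -3.06 to 3.54.

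The test of each particle group against PBS called 0 members. The numbers past an unadjusted p of 0.05 were 15 of 121 with gold 20 nm, 20 with gold 100 nm, 21 with silicate 20 nm and 15 with silicate 100 nm, or 12.4%, 16.5%, 17.4% and 12.4%, against 8.43%, 11.6%, 14.8% and 10.5% of all probes. The share of all probes called was 0.609%, 0.816%, 1.69% and 0.774% in these comparisons. With slide as a fixed block, 5, 7, 10 and 4 members were called (3.94%, 6.1%, 8.04% and 3.57% of all probes), and with slide as a random block 0 in each group (0.457%, 0.549%, 1.05% and 0.63% of all probes). With median centring the counts were 6, 7, 2 and 7, all higher (1.23%, 1.54%, 1.82% and 1.61% of all probes).

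In the mean of the 4 particle groups against PBS, 26 of 121 member probes were called, 13 higher and 13 lower, or 21.5% against a background of 13.9% of all probes (7.89% higher and 6.06% lower). Past an unadjusted p of 0.05 were 45 members (37.2%) and 29.4% of all probes. The 26 called probes belonged to 23 genes, 11 higher and 12 lower. Of the 26 changes, 25 were smaller than 0.3 on the log2 scale, with a median size of 0.141. By complex the calls were 5 of 42 probes in complex I (1 higher, 4 lower), 1 of 10 among assembly factors (lower), 2 of 6 in complex II (both lower), 5 of 14 in complex III (4 higher, 1 lower), 7 of 22 in complex IV (4 higher, 3 lower) and 6 of 26 in ATP synthase (4 higher, 2 lower). With slide as a random block 1 call was left, a Uqcrh probe, against 1.48% of all probes, and with slide as a fixed block 45 were called against 34% of all probes. With median centring 49 members were called, 47 higher and 2 lower, against 13.7% of all probes, so the split into higher and lower members depends on the scale. With the scanner's processed signals 10 were called, against 9.05% of all probes. Without slide 1, 2 or 3 the counts were 2, 0 and 14, against 3.5%, 0.887% and 8.15% of all probes. Past an unadjusted p of 0.05 were 24 members without slide 2. Every member call was therefore lost without slide 2, and the calls shared with the full set numbered 2 and 12 without slides 1 and 3.

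**Figure D2:**
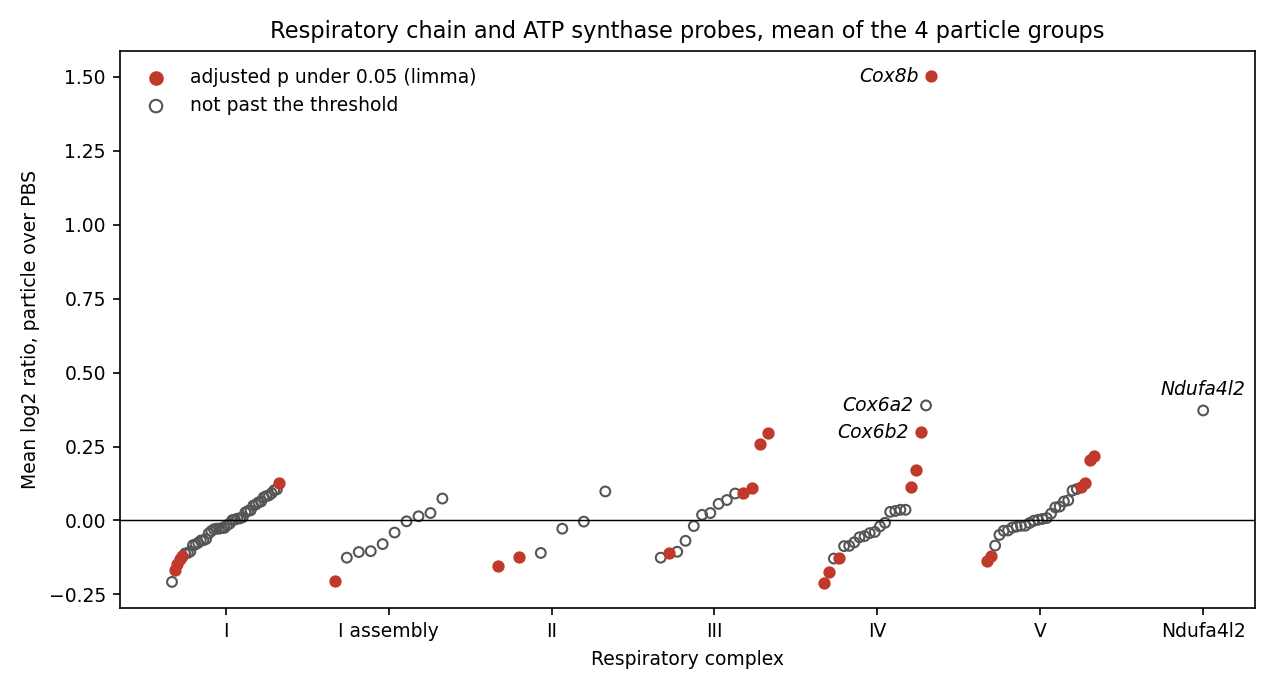
Mean log2 ratio of particle over PBS over the 4 particle groups for each kept member probe (1 point per probe), by respiratory complex and sorted within it. Filled red points have an adjusted p under 0.05, and apart from Cox8b at 1.50 the filled points lie between -0.21 and 0.30. With median centring in place of loess, Cox4i1, Ndufa7, Ndufb7 and Ndufb9 lie above 0.

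Uqcrh encodes the acidic hinge subunit of complex III, which helps cytochrome c1 pass its electron to cytochrome c. At probe A_55_P1965427 the log2 ratios on slides 1, 2 and 3 were 0.41, 0.28 and 0.33 with gold 20 nm, 0.43, 0.13 and 0.33 with gold 100 nm, 0.42, 0.22 and 0.10 with silicate 20 nm, and 0.43, 0.24 and 0.20 with silicate 100 nm. All 12 arrays were above 0, slide 1 was the highest in each group, and the groups overlapped. The mean was 0.29 ± 0.12 (SD, n = 12 arrays), a 1.23-fold change with an adjusted p of 0.00148, and 0.0433 with slide as a random block. By slide the means were 0.42, 0.22 and 0.24. Probe A_55_P2052470 of the same gene gave 0.26 ± 0.11 with an adjusted p of 0.00288 (0.0612 with the random block), above 0 on 12 of 12 arrays. The first probe's call was lost without slide 2 (0.33, adjusted p = 0.0756), and the value was 0.55 with median centring and 0.19 with the scanner's processed signals (adjusted p = 0.0388). Both probes share an accession. The RefSeq table also lists pseudogenes of Uqcrh and of other members, and whether their transcripts add to these signals was not tested.

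Other complex III members moved less. Uqcr10, a small accessory subunit, rose at 2 of 3 probes, by 0.09 ± 0.04 (adjusted p = 0.0218) and 0.11 ± 0.04 (adjusted p = 0.0113), each above 0 on 12 of 12 arrays. These probes had ranges over the arrays of 0.107 and 0.141, among the 3 smallest of the members, beside 0.125 for the complex I subunit gene Ndufa13. Uqcrb, a small subunit called the ubiquinone-binding protein and named after its values were seen, fell at 1 of 3 probes, at -0.11 ± 0.09 (adjusted p = 0.0413), with 2 of 12 arrays above 0. The random block gave adjusted p-values of 0.357, 0.257 and 0.511 for these 3 calls.

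In complex IV, Cox4i1, the largest nuclear-encoded subunit, and Cox5a, which lies on the matrix side of the enzyme, fell, a direction that median centring turned for Cox4i1. Cox4i1 measured -0.03, -0.18 and -0.21 with gold 20 nm on slides 1, 2 and 3, -0.23, -0.15 and -0.13 with gold 100 nm, -0.19, -0.20 and -0.21 with silicate 20 nm, and -0.13, -0.21 and -0.22 with silicate 100 nm. All 12 arrays were below 0, with gold 20 nm on slide 1 nearest to it. The mean was -0.18 ± 0.06 (SD, n = 12; adjusted p = 0.00237, 0.143 with the random block), but 0.04 with median centring (adjusted p = 0.564). Cox5a measured -0.26, -0.17 and -0.12 with gold 20 nm, -0.34, -0.25 and -0.11 with gold 100 nm, -0.35, -0.16 and -0.28 with silicate 20 nm, and -0.16, -0.23 and -0.10 with silicate 100 nm. It was below 0 on all 12 arrays as well, and the groups overlapped. Its mean was -0.21 ± 0.09 (adjusted p = 0.00242, 0.114 with the random block), and -0.01 with median centring (adjusted p = 0.897). Cox4i2, the hypoxia-responsive form of Cox4i1, averaged 0.03 ± 0.12 and was not called (adjusted p = 0.655).

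Cox8b, the muscle form of subunit 8, showed the largest ratio and the widest range of the members. With gold 20 nm the log2 ratios on slides 1, 2 and 3 were 1.94, 0.79 and -0.46, with gold 100 nm 3.34, 1.32 and -0.18, with silicate 20 nm 3.79, 1.68 and 1.64, and with silicate 100 nm 2.31, 0.10 and 1.77. Ratios were highest on slide 1 in every group, and the 2 values below 0 were the gold arrays of slide 3. Its PBS level was 8.57, 10.19 and 11.02 on the 3 slides, and its Cy5 level ran from 10.35 to 12.74, so PBS varied by 2.45 between slides. The mean log2 ratio was 1.50 ± 1.31 (SD, n = 12), a 2.83-fold change in the direction of 10 of 12 arrays (adjusted p = 0.0227, 0.235 with the random block). Without slide 1 it was 0.83 (adjusted p = 0.124), and without slide 2 it was 1.77 (adjusted p = 0.182).

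In every group the median of the pigment epithelium markers, like the Cox8b ratio, was highest on slide 1. The skeletal muscle medians there lay between 0.06 and 0.37. The first list, 12 of 13 genes measured and 8 of them called higher, had median ratios on slides 1, 2 and 3 of 1.35, 1.11 and -0.34 with gold 20 nm, 2.66, 1.44 and 0.17 with gold 100 nm, 2.14, 0.72 and 0.41 with silicate 20 nm, and 1.77, 0.13 and 0.53 with silicate 100 nm. Single genes of the list differed with gold 20 nm. Tyr, Tyrp1 (1.85 and 4.29), Dct, Pmel, Mlana, Slc45a2 and Oca2 were higher on slide 2 than on slide 1. Rpe65, Rlbp1, Lrat, Rdh5 and Ttr were higher on slide 1 than on slide 2. The median PBS level of the list, 8.14, 9.26 and 10.95, rose over the slides in the same order as that of Cox8b. Its summed Cy5 intensity ranged over 50900 to 147000 with gold 20 nm, 86200 to 151000 with gold 100 nm, 91400 to 96600 with silicate 20 nm and 54600 to 110000 with silicate 100 nm, and at least 11 of 12 genes were well above background on each array. The 8 calls, against 13.9% of all probes called, were all lost with slide as a random block, which gave adjusted p-values of 0.215 to 0.545 over the 12 genes. The median ratios of the skeletal muscle list on slide 1 were 0.19 and 0.37 with gold 20 and 100 nm and 0.25 and 0.06 with silicate 20 and 100 nm. In the same order they were 0.09, 0.54, 1.72 and 0.16 on slide 2, and -0.13, -0.03, 1.12 and 1.89 on slide 3. On the silicate arrays of slide 2, and with silicate 100 nm on slide 3, these medians lay near the Cox8b ratios. With silicate 20 nm on slide 3 the muscle median was below Cox8b. On the gold arrays of slide 2 the muscle medians were below Cox8b and the pigment epithelium medians above it. The pigment epithelium medians were below Cox8b on the silicate arrays of slide 3. The median PBS level of the muscle list was 6.88, 6.98 and 7.08 on slides 1, 2 and 3. The part of either list in the Cox8b result was not tested.

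Cox6a2, the muscle form of subunit 6a, was high on 3 arrays. Its log2 ratios on slides 1, 2 and 3 were -1.03, -0.24 and -0.34 with gold 20 nm, -0.58, 0.42 and -0.11 with gold 100 nm, -0.08, 2.45 and 1.85 with silicate 20 nm, and -0.57, -0.07 and 2.97 with silicate 100 nm. The high arrays were silicate 20 nm on slides 2 and 3 and silicate 100 nm on slide 3, and the rest lay between -1.03 and 0.42. The mean of 0.39 ± 1.30 was not called (adjusted p = 0.456), nor was gold against silicate, a difference of -1.41 (adjusted p = 0.892). The skeletal muscle list (12 of 16 genes measured) had its 3 highest medians on the same arrays, 1.72, 1.12 and 1.89, against -0.13 to 0.54 on the other 9. Its summed Cy5 intensity ranged over 7220 to 8280 with gold 20 nm, 8120 to 9610 with gold 100 nm, 7960 to 15700 with silicate 20 nm and 7970 to 21600 with silicate 100 nm, with 6 to 12 of its 12 genes well above background. On the 3 high arrays, Mylpf, Atp2a1, Pygm and Eno3 of this list lay between -0.16 and 0.24. The other measured genes of the list lay there between 0.23 and 3.89. Whether muscle in the preparation set the Cox6a2 values was not tested. The widely expressed Cox6a1 stayed between -0.12 and 0.13 on all arrays.

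**Figure D3:**
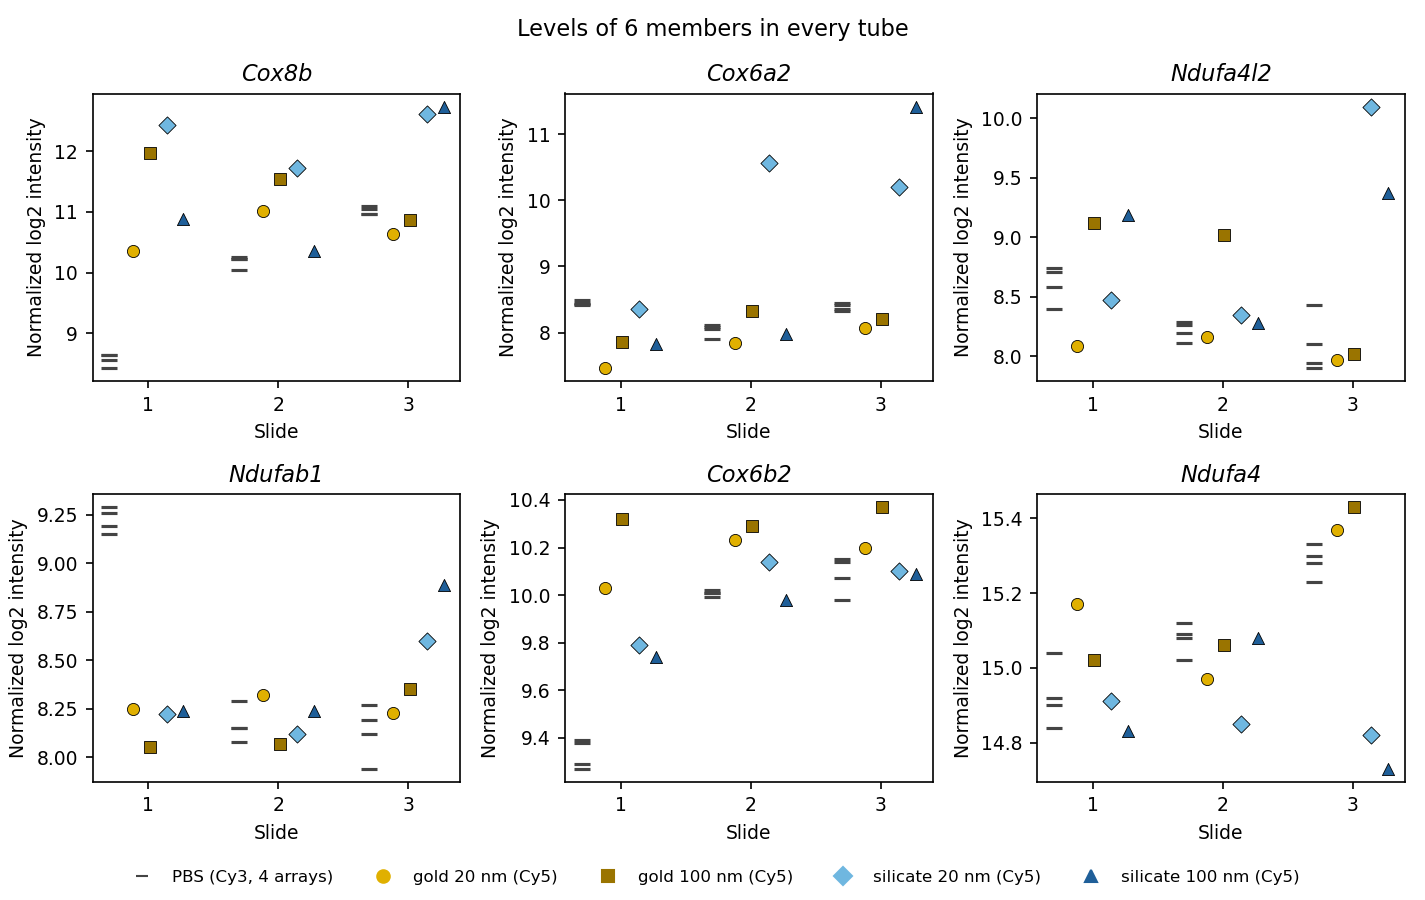
Normalized log2 intensity of 6 members in every tube, by slide. Grey dashes are PBS (Cy3, 4 arrays per slide) and coloured symbols the particle tubes (Cy5). Cox8b in PBS climbs from 8.57 on slide 1 to 11.02 on slide 3, and Ndufab1 in PBS is highest on slide 1 at 9.22.

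Among the remaining isoform pairs, Cox6b2 and Ndufa4l2 had the widest ranges of ratios. Cox6b2, the testis form of subunit 6b, measured 0.64, 0.25 and 0.06 with gold 20 nm, 0.94, 0.28 and 0.22 with gold 100 nm, 0.51, 0.12 and 0.03 with silicate 20 nm, and 0.45, -0.04 and 0.11 with silicate 100 nm. Slide 1 was highest in each group, and the PBS level of slide 1, 9.33, was lower than the 10.01 and 10.08 of the other slides. Its mean was 0.30 ± 0.29, above 0 on 11 of 12 arrays (adjusted p = 0.0412, 0.229 with the random block), and 0.13 without slide 1 (adjusted p = 0.121). It was also not called without slide 2 (0.37, adjusted p = 0.224) or slide 3 (0.40, adjusted p = 0.0768). Cox6b1 averaged -0.06 ± 0.09, Cox7a1 -0.09 ± 0.18 and Cox7a2 0.04 ± 0.05, none of them called. Cox7b rose by 0.11 ± 0.08 on 12 of 12 arrays (adjusted p = 0.0317, 0.397 with the random block). Ndufa4l2, a hypoxia-induced relative of Ndufa4, reached its highest ratios, 1.67 and 1.27, on the silicate arrays of slide 3, with the other 10 arrays between -0.50 and 0.73, and its mean of 0.37 ± 0.60 was not called (adjusted p = 0.136). Ndufa4 itself, now counted as a complex IV subunit, had its lowest there, -0.41 and -0.57, with the other arrays between -0.17 and 0.13 (mean -0.07 ± 0.22, adjusted p = 0.439).

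In complex I the called subunits were mostly lower. Ndufa7, an accessory subunit, measured -0.15, -0.09 and -0.15 with gold 20 nm, -0.18, -0.14 and -0.04 with gold 100 nm, -0.24, -0.24 and -0.17 with silicate 20 nm, and -0.21, -0.16 and -0.26 with silicate 100 nm. It was below 0 on all 12 arrays, with a mean of -0.17 ± 0.06 (adjusted p = 0.00209, 0.126 with the random block) and 0.03 with median centring. Ndufb7 (-0.15 ± 0.10, adjusted p = 0.0148, 0.204 with the random block) and Ndufb9 (-0.13 ± 0.09, adjusted p = 0.0152, 0.306 with the random block), accessory subunits of the membrane arm, were below 0 on at least 11 of 12 arrays, but were 0.03 and 0.04 with median centring. The assembly factor Ndufaf7, an arginine methyltransferase that modifies a core subunit, fell to -0.20 ± 0.10 on 12 of 12 arrays (adjusted p = 0.00639, 0.263 with the random block) and to -0.19 with median centring (adjusted p = 0.0183). Ndufab1, the mitochondrial acyl carrier protein and named after its values were seen, ran from -1.14 to -0.93 on slide 1, from -0.05 to 0.17 on slide 2 and from -0.04 to 0.77 on slide 3. Its PBS level was 9.22 on slide 1 and 8.17 and 8.13 on the others, and its mean of -0.21 was not called (adjusted p = 0.541).

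Complex II has 4 subunits, all encoded in the nucleus. Sdhc, a membrane anchor, fell at both probes, by 0.16 and 0.12 on the log2 scale (adjusted p = 0.0246 and 0.0261, 0.381 and 0.364 with the random block), below 0 on 11 and 12 of 12 arrays. The flavoprotein Sdha averaged -0.03 ± 0.12, the iron-sulphur protein Sdhb 0.00 ± 0.19 and 0.10 ± 0.21 at its 2 probes, and the second anchor Sdhd -0.11 ± 0.23, and none was called. The highest ratios of Sdhb and Sdhd were on the silicate arrays of slide 3, with 0.30 to 0.45 for the Sdhb probes and 0.15 and 0.34 for Sdhd.

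In ATP synthase, Atp5b, the catalytic beta subunit, measured 0.38, 0.25 and 0.22 with gold 20 nm, 0.37, 0.21 and 0.34 with gold 100 nm, 0.36, 0.18 and -0.23 with silicate 20 nm, and 0.44, 0.27 and -0.18 with silicate 100 nm. Only the silicate tubes of slide 3 were below 0. The mean was 0.22 ± 0.21 (adjusted p = 0.0494, 0.426 with the random block), 0.30 without those 2 arrays (adjusted p = 0.00267), and 0.05 with processed signals (adjusted p = 0.709). The call was also lost without slide 1 (0.13, adjusted p = 0.274) and without slide 2 (0.21, adjusted p = 0.355). Atp5g3, a gene of the membrane c ring, averaged 0.21 ± 0.09 on 12 of 12 arrays (adjusted p = 0.0051, 0.121 with the random block) and 0.11 with processed signals (adjusted p = 0.129). Atp5j, coupling factor 6 of the peripheral stalk, averaged 0.13 ± 0.05 on 12 of 12 arrays (adjusted p = 0.00919), and Atp5o, the stalk subunit that confers oligomycin sensitivity, -0.14 ± 0.07 with 1 array above 0 (adjusted p = 0.00954). With the random block these were 0.223 and 0.255.

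Over all members, 8 probes were above 0 on 12 of 12 arrays and 8 below 0, or 6.61% each, against 3.55% and 2.31% of all probes. Those above were 2 probes of Uqcr10, 2 of Uqcrh and 1 each of Uqcrfs1, Cox7b, Atp5g3 and Atp5j. Those below were Ndufa7, Ndufb9, Ndufaf7, Sdhc, Cox4i1, Cox5a, Cox5b and Atp5j2. Uqcrfs1, the Rieske iron-sulphur protein, and Cox5b (-0.13, adjusted p = 0.0239, 0.406 with the random block) were named after their values were seen.

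Gold and silicate were compared within the fit, where dye preferences cancel. No member was called, with 0 of all probes called in this comparison and 0 members with slide as a random block (0.0633% of all probes) or as a fixed block (0.0211%). Past an unadjusted p of 0.05 was 1 of 121 members (0.826%) against 5.08% of all probes. With slide as a random block these shares were 15.7% of the members (19 probes) and 13.5% of all probes, and with slide as a fixed block 15.7% and 15.9%. The median difference, gold minus silicate, was 0.07 over the members, with 95 of 121 above 0 (78.5%), and -0.02 over all probes, of which 44.8% were above 0. The members' median differences were 0.04, 0.04 and 0.10 on slides 1, 2 and 3, with 87, 97 and 90 of 121 above 0. Both gold tubes were above both silicate tubes for 41 of 121 probes on slide 1 (33.9%, against 14.3% of all probes) and 41 on slide 2 (against 17%), and the reverse held for 11 (9.09%, against 20%) and 5 (4.13%, against 19%). On slide 3 both gold tubes were above both silicate tubes for 64 of 121 probes (52.9%, against 29.4% of all probes), and the reverse held for 15 (12.4%, against 33.1%). Members are not replicates, and each slide offers 2 tubes per material.

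The complexes differed on slide 3, a difference that was not tested. The complex I median of gold minus silicate was 0.16, with 34 of 42 probes above 0, against 49.8% of all probes. Both gold tubes were above both silicate tubes for 29 complex I probes (69%), against 29.4% of all probes. Assembly factors (median 0.16, 6 of 10 probes so separated) and a list of tricarboxylic acid cycle genes (0.18, 12 of 18) were similar. The medians of complexes III, IV and V were 0.09, 0.04 and 0.08. In complex II, 1 of 6 probes was above 0 (median -0.14). On slides 1 and 2 the complex I medians were 0.06 and 0.05. The largest differences on slide 3 toward gold were 0.59 for Ndufa4, 0.49 for Atp5b, 0.42 for Ndufa10 and 0.39 for a Ndufb11 probe, and toward silicate -2.64 for Cox6a2, -2.03 for Cox8b, -1.40 for Ndufa4l2 and -0.66 for Ndufab1. Ndufa10 was named after its values were seen. On the same arrays rod markers were lower with silicate, with summed Cy5 intensities of 1270000 and 1340000 against 2150000 and 2240000 with gold, and macrophage and microglia markers were higher, at 381000 and 427000 against 21300 and 16200, with 14 of 14 measured genes well above background. Their part in the members' difference was not tested.

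No member was called for particle size. For 100 nm against 20 nm the member median was 0.01, the values ran from -0.12 to 0.27, and 0 members passed an unadjusted p of 0.05 (1.02% of all probes). For the difference of the size effects of gold and silicate the count was 0 as well (0.612% of all probes), and both counts were 0 with either block (3.21% and 2.28% of all probes with the random block, 2.96% and 2.12% with the fixed block), with 0% of all probes called in both tests and 0 members called with either block.

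Probes of the same gene were compared for the 24 genes with at least 2 kept probes, 55 probes in all. The probe means differed by a median of 0.10, over 0.1 in 12 genes, which is near the size of most called changes. All probes had the same sign in 7 genes. Of the 7 genes with a called probe, Uqcrh and Sdhc had every probe called in the same direction, and Cox8a, Atp5g2, Atp5j2, Uqcr10 and Uqcrb only some.

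The widest gap was in Cox8a, the widely expressed form of subunit 8. Probe A_51_P517495 measured 0.19, 0.19 and 0.13 with gold 20 nm, 0.32, 0.26 and 0.23 with gold 100 nm, 0.12, 0.15 and 0.07 with silicate 20 nm, and 0.14, 0.26 and -0.04 with silicate 100 nm, with a mean of 0.17 (adjusted p = 0.00667, 0.191 with the random block). Probe A_55_P2018747 measured between -0.18 and 0.11, with a mean of -0.04 (adjusted p = 0.348). The first was above the second on 12 of 12 arrays, by 0.21 ± 0.06. With processed signals the means were -0.01 and -0.17, and with median centring 0.45 and 0.20, so the gap kept its sign where the direction did not. Atp5g2, another c ring gene, had means of 0.11 (adjusted p = 0.0422, 0.399 with the random block) and -0.09 (adjusted p = 0.0885), and Atp5j2, subunit f, of -0.12 (adjusted p = 0.0184, 0.292 with the random block) and 0.04 (adjusted p = 0.255). Their gaps of 0.20 ± 0.08 and 0.16 ± 0.05 also had the same sign on 12 of 12 arrays. Cox7c (-0.13, -0.05 and 0.04), Ndufaf4 (-0.11 and 0.03) and Ndufv3 (-0.11 and 0.01) had no called probe. The array files carry no probe sequences, so the position of each probe in its transcript was not analysed here.

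**Figure D4:**
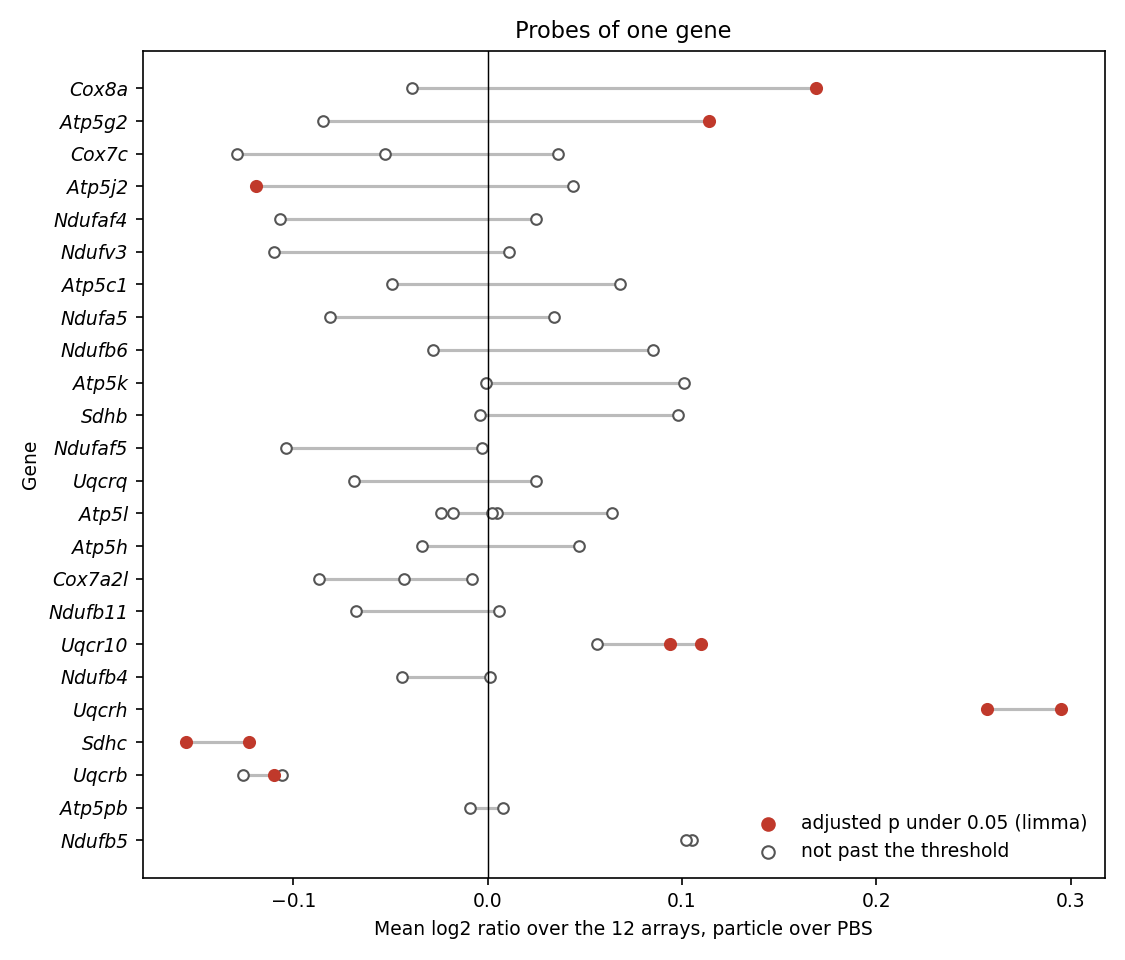
Mean log2 ratio over the 12 arrays for each probe of the 24 genes with at least 2 kept probes, sorted by the gap between probes (grey line). Filled red points have an adjusted p under 0.05. The gap is widest in Cox8a (-0.04 and 0.17; with median centring both are above 0), and the probes of Uqcrh lie at 0.26 and 0.29.

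Other mitochondrial genes, from lists made for this tissue, were counted in the mean of the 4 groups, where 13.9% of all probes were called. Of 14 measured genes for cytochrome c, cytochrome c1, ubiquinone synthesis and the ATPase inhibitor, 1 was lower (Coq6, -0.13, adjusted p = 0.0236) and 0 were higher. Of 36 assembly factors, Ttc19, a complex III factor, rose by 0.56 ± 0.26 on 12 of 12 arrays (adjusted p = 0.00151, 0.074 with the random block), and Uqcc3 (-0.21), Cox19 (-0.14) and Coa3 (-0.15) were lower. Of 18 tricarboxylic acid cycle genes, Idh3a (0.17, adjusted p = 0.0199) and Suclg2 (0.42, adjusted p = 0.0477) were higher and Idh3g (-0.21, adjusted p = 0.0204) lower. Of 27 regulators, import and carrier genes, Nrf1 (0.12, adjusted p = 0.0487) was higher, and Timm23 (-0.12, adjusted p = 0.0366) and Phb2 (-0.19, adjusted p = 0.0126) lower. The coactivator gene Ppargc1a averaged 0.01 ± 0.34 (adjusted p = 0.944) and Gabpa -0.06 ± 0.10 (adjusted p = 0.269). None of these lists had a call with the random block.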

How the data were processed

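The deposited files hold scanner intensity for each array, which the authors extracted with Feature Extraction (Agilent; version 11.0.1.1 by the headers, 9.3.2.1 per the submitters' processing notes). The array annotation is on mm9, per the file headers. Median signals and local backgrounds were used; the processed signals, the deposited log10 ratio and the deposited log2 value table served as alternatives or checks. The value table's columns followed the log10 ratio with slopes of 3.3 to 3.32 and correlations of 0.942 to 0.995 across probes, as log2 of Cy5 over Cy3 would. Its column medians were 0.0163 to 0.114, and its centring is unknown. Normexp correction (offset 50) and within-array loess were run in limma 3.58.1 (R 4.3.3, data.table version 1.17.8), with 1377 control spots at weight 0 and the 149 to 257 outlier spots per array left out. No spot was saturated. Spots of a probe were averaged, and probes were named through a RefSeq table of GRCm38.p6, which named 26055 of them. Probes had to be well above background, in Cy5 or Cy3, on every array of at least 1 group.

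Kept probes were tested with lmFit and eBayes in a single fit of 12 arrays with 4 group means, two-sided. P-values were adjusted by Benjamini-Hochberg across the 28428 kept probes, and every adjusted p is from limma. The fit was run on simulated data whose arrays were independent. That run cannot show how the fit behaves when arrays of a slide are correlated or share a PBS tube. The number of arrays limits the precision. Each tube pools 4 retinas, and nothing states which mice shared a tube. Replicate numbers equal slide numbers in the file headers, and the arrays were paired by these numbers. Deviations from the group means correlated across genes at 0.884 to 0.932 between arrays of slide 1 and 0.549 to 0.919 of slide 3. On slide 2 they correlated at 0.0764 to 0.82, so not every pair of its arrays varied together. Correlations between slides are not given here. Named members were the 8 largest called changes in each direction of the mean of the 4 groups, the isoform pairs, Uqcrh and Sdha to Sdhd, the 6 genes whose probes differed most, and the 3 widest and 3 narrowest ranges. The members and lists were chosen with earlier results of these data known.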

Additional observations from a re-analysis of the deposited data

How the results depend on the processing

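In the mean of the 4 particle groups, 26 members were called on the main setting, and 10 with processed signals, 49 with median centring (47 higher and 2 lower), 45 with the replicate block and 1 with slide as a random block. Leaving out a slide gave 0 to 14, with 2 without slide 1, 0 without slide 2 (24 past an unadjusted p of 0.05) and 14 without slide 3. No background correction, no filter, 1 probe per gene, the value table and leaving out the silicate arrays of slide 3 gave 22 to 27. In the gold groups of 20 and 100 nm and then the silicate groups of 20 and 100 nm, median centring called 6, 7, 2 and 7 members, all higher, and the replicate block 5, 7, 10 and 4. The block did not change the 0 calls of the material, size and interaction tests. The group medians with median centring were 0.126, 0.167, 0.028 and 0.141, and that of gold 20 nm was 0.048 with processed signals and -0.002 with the value table. The median gap between probes of a gene, 0.098, was 0.126 with median centring, 0.086 with processed signals and with the value table, and 0.082 to 0.101 when a slide was left out. Changes of sign are listed only for named probes called on the main or the alternative setting. Among these, signs turned for Cox8a probe A_51_P517495 with processed signals (-0.008) and the value table (-0.015). With median centring they turned for Cox4i1 (0.039), Ndufa7 (0.029), Ndufb7 (0.028), Ndufb9 (0.04), Cox8a probe A_55_P2018747 (0.199) and Ndufa13 (0.225). The cause of these changes was not tested, except that fewer arrays enter when a slide is left out. Of the 22 called probes of named genes, 22 kept their direction without each slide and 2, 0 and 12 their call without slides 1, 2 and 3. With no dye swap, dye and particle effects cannot be told apart in any comparison with PBS.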
